A study of Mus musculus with 12 samples.

Results

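The genes described here are the Wnt ligands, their Frizzled receptors, the Lrp and Lgr receptors, the secreted antagonists and the feedback gene Axin2, read from RNA sequencing of mouse cornea. They were taken by symbol: every gene named Wnt, Fzd, Sfrp or Dkk with a number, plus Lrp5, Lrp6, Lgr4, Lgr5, Lgr6, Axin2, Wif1 and Frzb. This gave 45 of the 19702 genes in the table. They comprised 19 Wnt ligands, 10 Frizzled receptors, 2 Lrp co-receptors, 3 Lgr receptors, 10 secreted antagonists and Axin2. The filter on low counts left 39 of them among the 16124 genes tested. The 6 members that did not pass it were Wnt1, Wnt3, Wnt8a, Wnt8b, Wnt9b and Dkk4. Of these, Wnt9b had 52 counts over all 12 libraries, and the other 5 had 2 to 12 each.

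There were 12 libraries in 4 groups of 3. UCPRP and UCS corneas had been injured with benzalkonium chloride (BAK), a detergent preservative of eye drops, and received 5 µl of a 20% cord blood-derived biologic 3 times daily for 10 days. The abbreviations UCPRP and UCS are not expanded in the labels. Vehicle corneas had the BAK injury, 5 µl at 0.2% daily for 14 days as in the treated groups, and are labelled as untreated. Control corneas had neither injury nor treatment. Each library pooled 6 corneas of 3 mice, so the spread between libraries is a spread between pools. The labels used here state neither strain nor age, nor when corneas were taken, nor whether BAK and treatment overlapped in time. In pooled whole tissue, fewer cells of a type and less RNA per cell cannot be told apart.

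Wnt proteins are secreted lipid-modified signals that bind Frizzled receptors. When a Wnt also engages Lrp5 or Lrp6, beta-catenin escapes destruction and switches on genes such as Axin2, which in turn restrains the pathway. Other Wnt signals act without beta-catenin, on cell polarity and movement. Sfrp proteins, Frzb and Wif1 bind Wnts outside the cell, Dkk1 and Dkk2 bind the Lrp co-receptors, and Lgr receptors take up R-spondins, which raise the number of Frizzled receptors at the surface. In the mouse eye, loss of Dkk2 turns corneal epithelium towards skin, and in human limbal cells WNT7A is known to act upstream of PAX6.

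Library totals were 18554145 to 20443727 estimated counts. Levels are given as CPM, counts normalised to the library total, after TMM scaling, an edgeR correction for library composition, and 3 counts, the floor used here, correspond to 0.147 to 0.178 CPM. The corneal epithelium markers summed to 7784 to 11050 CPM in UCPRP libraries, 7670 to 9526 in UCS, 7110 to 9182 in Vehicle and 36830 to 78040 in Control. Conjunctival and goblet cell markers went the other way, with 14280 to 18490 CPM in UCPRP, 15320 to 19380 in UCS, 13050 to 18910 in Vehicle and 2681 to 6214 in Control. Krt12, the defining keratin of corneal epithelium, had 7.18 to 23.9 CPM in Vehicle libraries and 15900 to 32870 CPM in Control libraries. Slurp1 and Lypd2 of that list were also near absent in Vehicle, at 0.244 to 1.07 and 0.195 to 0.817 CPM. In Control they had 1091 to 2109 and 1319 to 2365 CPM. Pax6 differed less, with 380.6 to 445.3 CPM in Vehicle and 622.3 to 704.8 in Control. Gpha2, also of that list, was higher in Vehicle, with 119 to 127.8 CPM against 34.04 to 49.82 in Control. Summed keratocyte markers overlapped between Vehicle (5741 to 9391 CPM) and Control (5579 to 7243 CPM), but single markers moved apart in both directions. Kera had 61.98 to 132.7 CPM in Vehicle and 198.2 to 370.6 in Control, and Aldh1a1 78.04 to 104 and 247.6 to 280.1. Lum had 625.5 to 1147 CPM in Vehicle and 317.3 to 476 in Control, and Col1a1 1256 to 2407 and 479.2 to 913.2. Dcn and Ptgds overlapped. Of the 7 corneal epithelium markers, 5 to 7 were above 3 counts in every library, and of the 7 conjunctival and goblet cell markers, 7 were in every injured library and 5 to 6 in the Control libraries. Other eye tissues also had marker transcripts in every library. Retina markers summed to 4375 to 13770 CPM in UCPRP and 4105 to 8690 in UCS libraries. They summed to 2348 to 10620 CPM in Vehicle and 3095 to 8561 in Control. Iris and ciliary body markers summed to 3247 to 5107 CPM in UCPRP and 3511 to 5081 in UCS. In Vehicle and Control these sums were 2972 to 4673 and 4054 to 5546 CPM. The part of these tissues and cell types in the results below, the level of Dkk3 included, was not tested. Genes of the lens list set 6 libraries apart within the groups, UCPRP 1 and 3, UCS 2, Vehicle 2 and Control 1 and 3, with 1625 to 14990 CPM of the crystallin Cryaa, against 13.6 to 203.2 CPM in the other 6. Wnt7a and Wnt7b are set beside these values below.

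Per kilobase of exon, the most abundant member was an antagonist. Over all 12 libraries Dkk3, a divergent Dickkopf protein that does not act on the Lrp co-receptors as Dkk1 does, averaged 252 CPM per kilobase. Sfrp1, a Wnt-binding antagonist, followed at 48.5. Wnt4, which led the ligands, stood at 33.4. On this scale Dkk3 had 259 ± 49.6 CPM per kilobase in UCPRP, 228 ± 34.3 in UCS, 203 ± 11.7 in Vehicle and 319 ± 16.9 in Control (SD, n = 3 each). Sfrp1, next in order, had 47.4 ± 16.6 in UCPRP, 43.8 ± 11.2 in UCS, 43.7 ± 6.39 in Vehicle and 59.2 ± 5.15 in Control. These means lay above the group means of Wnt4, the third, at 30.7 to 38.6, though the ranges over single libraries overlapped.

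Among the ligands, Wnt4 was followed by Wnt7b at 12.2, Wnt10a at 10.2, Wnt5a at 7.14 and Wnt9a at 6.72 CPM per kilobase over all libraries. Wnt2, Wnt3a and Wnt7a lay at 1.8, 1.09 and 0.666. Fzd6 (19.1) and Fzd1 (16.6) led the Frizzled receptors, and their order was not the same in every group. In Vehicle corneas Fzd1, at 19.6 ± 1.64 CPM per kilobase, stood above Fzd6 at 15.6 ± 2.32, while in Control corneas Fzd6, at 30.8 ± 1.73, stood above Fzd1 at 10.6 ± 1.06. UCPRP and UCS corneas had the Vehicle order, with Fzd1 at 18.4 ± 1.67 and 17.8 ± 1.51 and Fzd6 at 14.5 ± 1.82 and 15.5 ± 1.3. Lgr4, a receptor for R-spondins found in many tissues, was at 14.1 CPM per kilobase over all libraries, above Lgr5 at 1.08 and Lgr6 at 0.294. Lrp6 and Lrp5 were at 6.36 and 5.27.

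**Figure D1:**
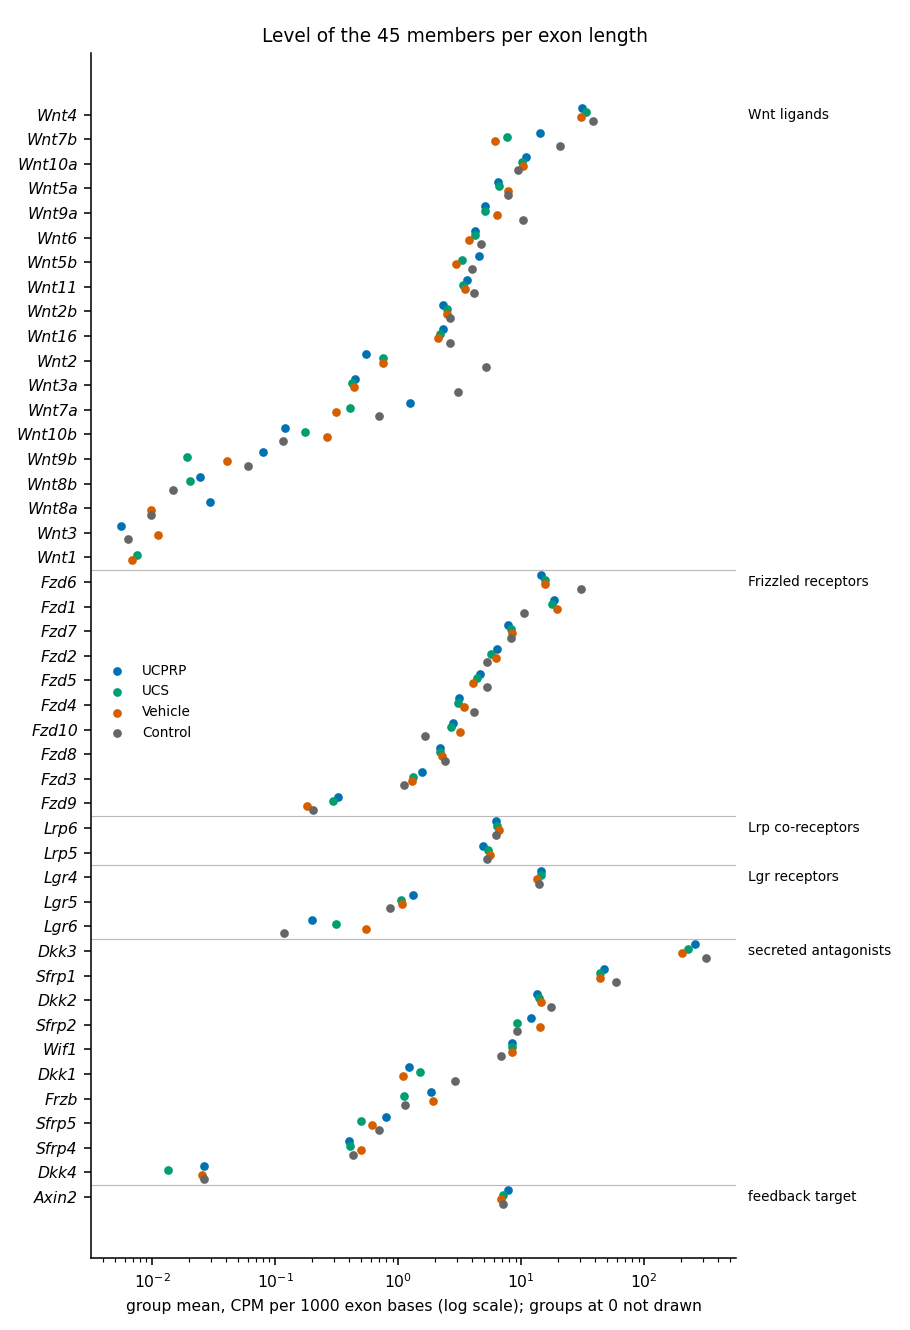
Mean level of each of the 45 members in UCPRP, UCS, Vehicle and Control corneas, in CPM per kilobase of exon on a log axis, grouped by role; each point is the mean of 3 libraries, and group means at 0 are not drawn. Dkk3 lies above 200 in every group, and the points of Wnt2, Wnt3a and Fzd6 separate Control from the injured groups.

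The first comparison asks what BAK injury did to these genes. With Vehicle set against Control, 3 members were higher and 8 lower. The receptors Fzd1, Fzd10 and Lgr6 rose. The ligands Wnt2, Wnt3a, Wnt7b and Wnt9a, the receptors Fzd6 and Fzd5, and the antagonists Dkk1 and Dkk3 fell. The 2 steepest falls were 7.01-fold for Wnt3a and 6.86-fold for Wnt2. The other 28 tested members, among them Axin2, did not pass the test, which was edgeR's quasi-likelihood test at an adjusted p under 0.05.

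The 11 called members were 28.2% of the 39 tested, and 16.5% of all 16124 genes were called in the same comparison. By direction, 9.58% of all genes were called higher and 6.92% lower in Vehicle. The median log2 fold change was -0.09 over the tested members and -0.001 over all genes tested, and the median absolute value was 0.33 over the members and 0.229 over all genes. The Vehicle and Control libraries did not overlap for 15 members, or 38.5%, and for 30.6% of all genes.

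**Figure D2:**
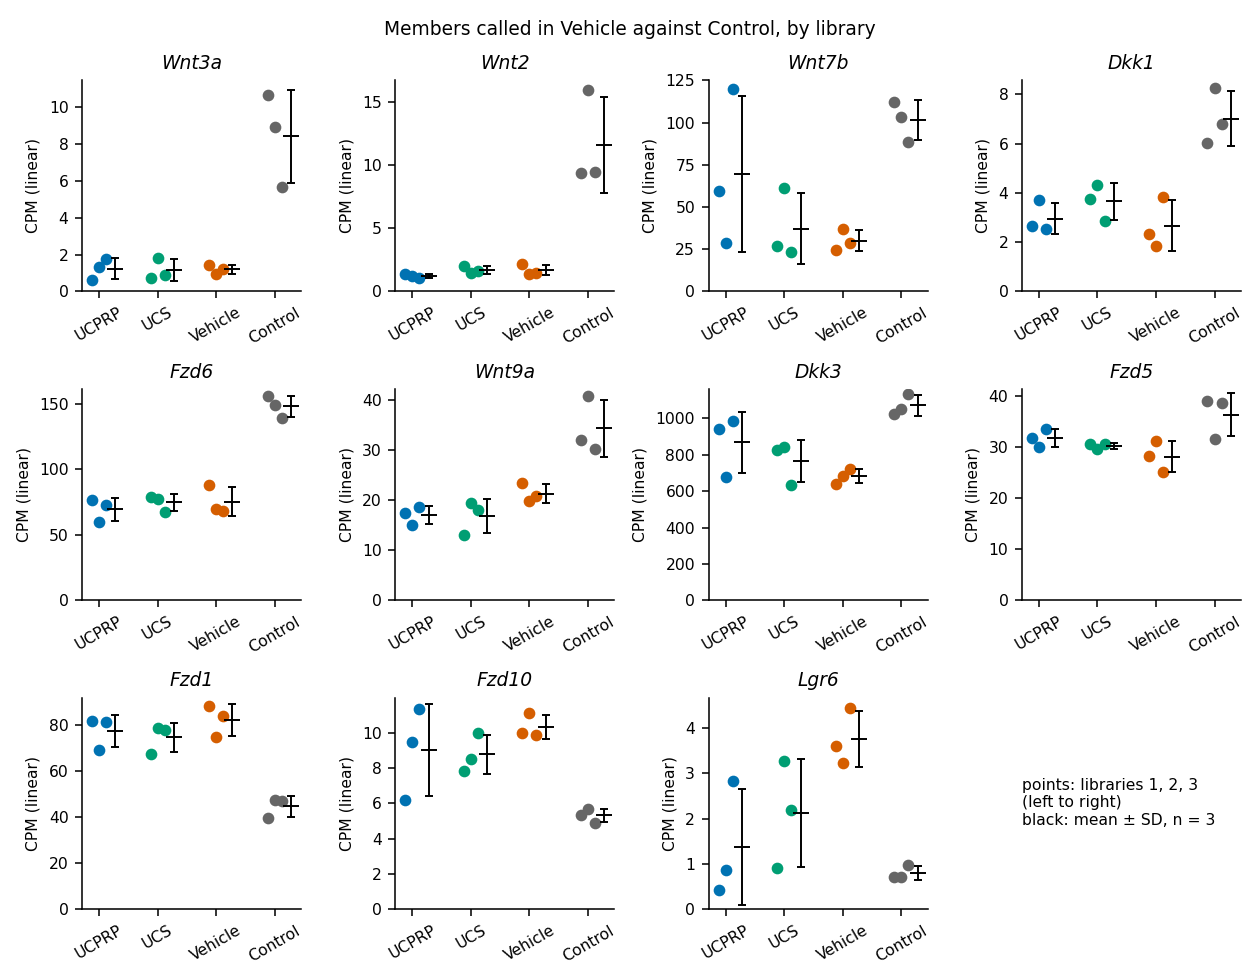
CPM on a linear scale in each of the 12 libraries for the 11 members called in Vehicle against Control, with points for libraries 1 to 3 from left to right and a bar for the mean ± SD (n = 3). Every Control value of Wnt2, Wnt3a, Fzd6 and Wnt9a lies above every value of the 3 injured groups, and every Control value of Fzd1 and Fzd10 lies below.

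Wnt2 (Entrez 22413, chromosome 6, 17988940 to 18030585, minus strand, GRCm38) encodes a ligand best known from lung development, where it acts through beta-catenin. It had 2.17, 1.42 and 1.48 CPM in Vehicle libraries and 9.37, 16.0 and 9.47 CPM in Control libraries. All 3 Control values stood above all Vehicle values. The log2 fold change was -2.78 (SE 0.28, edgeR adjusted p = 0.000114). All Wnt2 values were fractions of a count, as arise when reads are divided between features, so its level carries that uncertainty. Among the called members this also held for 100% of the values of Dkk1 and Lgr6, 91.7% of those of Fzd6, 83.3% of those of Fzd1 and 8.33% of those of Fzd10.

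Wnt3a (Entrez 22416, chromosome 11, 59248033 to 59290752, minus strand) is the ligand most used to switch on beta-catenin signalling in culture. It had 1.45, 0.928 and 1.23 CPM in Vehicle libraries and 10.7, 8.96 and 5.70 CPM in Control libraries, again with no overlap. The log2 fold change was -2.81 (SE 0.42, edgeR adjusted p = 0.001). Its nearest ligand gene is Wnt9a (Entrez 216795, chromosome 11, 59306928 to 59333552, plus strand), which starts 16175 bases away on the opposite strand, so that the pair is read outward from a shared interval. Wnt9a, a ligand studied in joint formation, had 23.4, 19.8 and 20.8 CPM in Vehicle libraries and 32.0, 40.8 and 30.2 CPM in Control libraries. It fell by 0.69 on the log2 scale (SE 0.16, edgeR adjusted p = 0.0145), with no overlap between the groups. Without Vehicle library 2 or Control library 2 its adjusted p was 0.0616 or 0.0543.

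The start regions of these neighbouring genes are shown because both genes fell and share the interval between them. They are the bases before the annotated gene start, from RefSeq (GRCm38.p6), 5′ to 3′ on the strand of each gene, with each CG step in capitals.
Wnt3a, chr11:59290753-59291001, minus strand: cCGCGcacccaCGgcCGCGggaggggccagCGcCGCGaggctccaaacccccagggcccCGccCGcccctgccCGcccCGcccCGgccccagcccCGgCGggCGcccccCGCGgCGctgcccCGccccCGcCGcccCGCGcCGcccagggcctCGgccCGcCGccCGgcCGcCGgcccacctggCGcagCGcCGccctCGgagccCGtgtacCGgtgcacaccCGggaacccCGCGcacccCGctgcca
Wnt9a, chr11:59306680-59306927, plus strand: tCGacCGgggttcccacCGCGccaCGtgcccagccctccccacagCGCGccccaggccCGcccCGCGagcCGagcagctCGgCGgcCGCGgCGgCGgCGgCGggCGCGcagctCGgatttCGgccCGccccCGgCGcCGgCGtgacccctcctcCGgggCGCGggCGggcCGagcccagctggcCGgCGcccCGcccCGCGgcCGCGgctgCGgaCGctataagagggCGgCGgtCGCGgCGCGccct
These stretches held 41 and 48 CG steps, against a median of 6 in 32851 promoter windows of 250 bases. Many CG steps were not particular to this pair. The uncalled Wnt4 and Fzd9 had 44 and 42, and Fzd10, which rose, had 37, while Wnt8b had 5. Neither stretch held the motif CTTTGAA, a core sequence bound by TCF and LEF factors, on either strand. The same was so for every other member with a promoter entry except Dkk1.

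Wnt7b (Entrez 22422, chromosome 15, 85535437 to 85582473, minus strand), a ligand that macrophages use in the developing mouse eye to clear the hyaloid vessels, had 24.8, 36.8 and 28.6 CPM in Vehicle libraries. In Control libraries it had 112.1, 103.4 and 88.6 CPM. The groups did not overlap, and the log2 fold change was -1.75 (SE 0.47, edgeR adjusted p = 0.0253). That call did not hold without Vehicle library 1 (adjusted p = 0.0905), Vehicle 2 (0.0553), Vehicle 3 (0.0761), Control 1 (0.0664) or Control 2 (0.0586), or with the libraries' class by the clock gene Dbp (high or low) as a term (log2 fold change -1.65, adjusted p = 0.0617). The 7 myeloid markers, all above 3 counts, summed to 770.7 to 1251 CPM in Vehicle libraries and 259 to 417.5 CPM in Control libraries, and their part in the Wnt7b levels was not tested. The exons of Wnt7b overlap a gene on the opposite strand, as do those of Fzd5, Fzd6, Axin2, Wnt5a, Wnt11 and Sfrp2. The labels do not say whether the authors counted by strand.

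The other 10 tested ligands did not pass the test in Vehicle against Control. Wnt4, the most abundant ligand per length, had 154.0, 111.5 and 121.0 CPM in Vehicle libraries and 156.4, 182.7 and 146.9 CPM in Control libraries, and the groups overlapped (log2 fold change -0.33, edgeR adjusted p = 0.207). Wnt5a, the ligand best known for signalling without beta-catenin, averaged 60.7 ± 9.69 CPM in Vehicle and 61.2 ± 4.67 CPM in Control (SD, n = 3 each), a log2 fold change of -0.01 (adjusted p = 0.972). Its sign changed with the libraries and settings used. Wnt6 averaged 8.22 ± 2.98 and 10.4 ± 3.69 CPM in Vehicle and Control (log2 fold change -0.34, edgeR adjusted p = 0.574). Wnt11, which takes part in cell movement during gastrulation, averaged 14.3 ± 4.56 and 17.0 ± 6.6 CPM (log2 fold change -0.25, edgeR adjusted p = 0.644, sign reversed without Control library 2). The remaining 6 were Wnt2b, Wnt5b, Wnt7a, Wnt10a, Wnt10b and Wnt16. Of these, the Vehicle and Control libraries did not overlap for Wnt5b, with 7.48 to 8.17 CPM in Vehicle and 8.86 to 11.8 CPM in Control, nor for Wnt10b, with 0.619 to 1.23 CPM in Vehicle and 0.311 to 0.515 CPM in Control.

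The Frizzled receptors moved in both directions, with 2 rising, 2 falling and 6 not passing the test. Fzd6 (Entrez 14368, chromosome 15, 39006034 to 39038188, plus strand), which orients hairs in mouse skin through the planar polarity pathway, had 88.2, 69.7 and 68.2 CPM in Vehicle libraries. In Control libraries it had 156.1, 149.0 and 139.5 CPM. The groups were far apart relative to their spread, and the log2 fold change was -0.98 (SE 0.13, edgeR adjusted p = 0.00046). Fzd1 (Entrez 14362, chromosome 5, 4753839 to 4758035, minus strand) had 88.2, 74.7 and 83.7 CPM in Vehicle libraries and 39.5, 47.3 and 47.0 CPM in Control libraries. It rose by 0.88 on the log2 scale (SE 0.11, edgeR adjusted p = 0.00038), the opposite direction to Fzd6, with which it shares the role of Wnt receptor.

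Fzd10 (Entrez 93897, chromosome 5, 128600844 to 128604093, plus strand) is a further Wnt receptor. It had 10.0, 11.1 and 9.90 CPM in Vehicle libraries and 5.36, 5.69 and 4.92 CPM in Control libraries. It rose without overlap between the groups (log2 fold change 0.96, SE 0.20, edgeR adjusted p = 0.00762). Fzd5 (Entrez 14367, chromosome 1, 64730558 to 64737751, minus strand), a receptor needed for normal eye development in mice, had 28.23, 31.16 and 25.02 CPM in Vehicle libraries and 38.98, 31.55 and 38.57 CPM in Control libraries. The highest Vehicle value lay just under the lowest Control value, and the log2 fold change was -0.37 (SE 0.11, edgeR adjusted p = 0.0377). Of the 11 calls, that of Fzd5 was lost in the most fits with 1 library left out. It did not hold without any one of 9 libraries, UCPRP 1 and 2, UCS 1, 2 and 3, Vehicle 1 and 3 and Control 1 and 3, with adjusted p-values of 0.0506 to 0.119. It also did not hold with the 2 groups fitted alone (0.23) or with the lens genes as a covariate (0.0576).

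The 6 Frizzled receptors that did not pass the test were Fzd2, Fzd3, Fzd4, Fzd7, Fzd8 and Fzd9, with log2 fold changes of -0.26 (Fzd4) to 0.25 (Fzd2). Fzd7, described as a receptor of human limbal stem cells, averaged 37.9 ± 4.41 CPM in Vehicle and 37.7 ± 1.78 CPM in Control (SD, n = 3 each). The co-receptors did not pass the test either. Lrp6 averaged 90.5 ± 4.83 CPM in Vehicle and 85.5 ± 9.67 CPM in Control, and its log2 fold change was 0.08 (edgeR adjusted p = 0.684). Lrp5 averaged 54.7 ± 6.8 and 51.1 ± 6.32 CPM, and its log2 fold change was 0.10 (edgeR adjusted p = 0.698). The sign of both reversed in some settings.

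**Figure D3:**
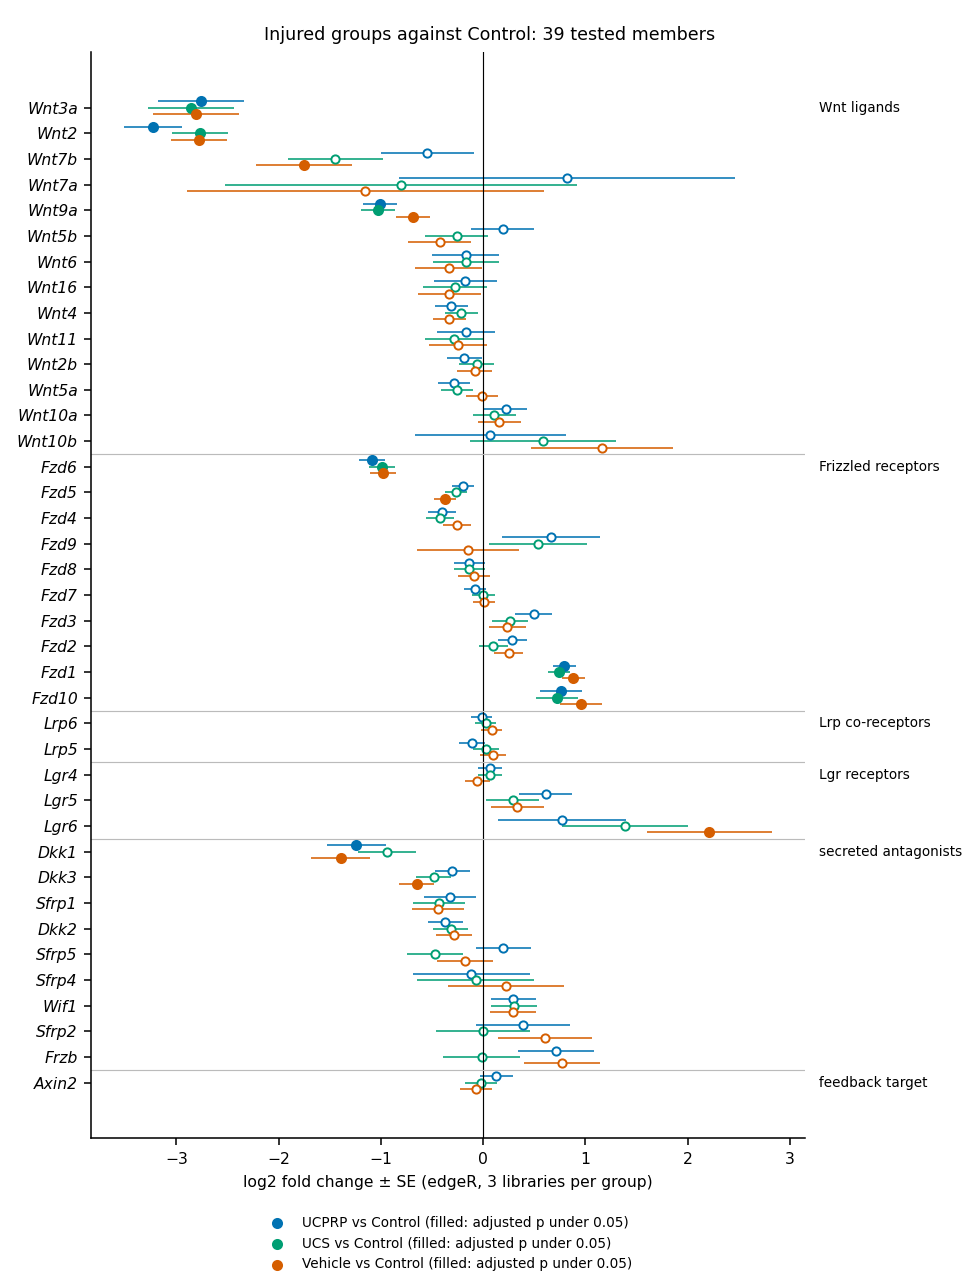
Log2 fold change ± SE of the 39 tested members in UCPRP, UCS and Vehicle corneas, each against the same 3 Control libraries (edgeR, 3 libraries per group), with filled points for an adjusted p under 0.05. Wnt2 and Wnt3a lie between -3.23 and -2.76 in all 3 comparisons, and Fzd1 and Fzd10 are the filled points to the right of 0 in all 3.

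Lgr6 (Entrez 329252, chromosome 1, 134983301 to 135105276, minus strand), which marks stem cells in mouse skin, had 3.61, 3.22 and 4.44 CPM in Vehicle libraries and 0.721, 0.712 and 0.984 CPM in Control libraries. The groups did not overlap, and Lgr6 had the largest rise among the called members (log2 fold change 2.21, SE 0.61, edgeR adjusted p = 0.0302). That call did not hold without any one of the 6 Vehicle and Control libraries, with adjusted p-values of 0.0548 to 0.0922 and log2 fold changes of 2.07 to 2.38. Lgr5, the stem cell marker of mouse intestine, had 7.64, 12.6 and 13.1 CPM in Vehicle libraries and 8.86, 6.64 and 10.9 CPM in Control libraries, which overlapped (log2 fold change 0.34, adjusted p = 0.457). Lgr4 averaged 78.8 ± 7.69 CPM in Vehicle and 81.9 ± 5.71 CPM in Control (SD, n = 3 each), and its log2 fold change was -0.06 (edgeR adjusted p = 0.823).

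Of the 9 secreted antagonists tested, 2 fell and none rose. Dkk1 (Entrez 13380, chromosome 19, 30545863 to 30549665, minus strand), which blocks Lrp5 and Lrp6 and is itself a target of beta-catenin, had 2.32, 1.86 and 3.83 CPM in Vehicle libraries and 6.03, 8.24 and 6.78 CPM in Control libraries. All Control values stood above all Vehicle values (log2 fold change -1.39, SE 0.29, edgeR adjusted p = 0.00667). Dkk1 was the 1 member of the 30 with a RefSeq promoter entry whose 250-base window held CTTTGAA on either strand, and 4.46% of the 32851 windows did. The site is shown in capitals with its flanks, 117 bases before the RefSeq start. GENCODE, the source of the gene coordinates given here, places the start of Dkk1 farther upstream, so that in its annotation this stretch lies inside the gene.
Dkk1, chr19:30549595-30549624, minus strand: tcctcccaaagCTTTGAAatcccatcccgg
A match of these letters is a description of the sequence, and no binding was measured.

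Dkk3 (Entrez 50781, chromosome 7, 112116017 to 112159057, minus strand) had 641.4, 685.8 and 719.5 CPM in Vehicle libraries and 1026, 1051 and 1135 CPM in Control libraries. The groups did not overlap, and the log2 fold change was -0.65 (SE 0.17, edgeR adjusted p = 0.022). Its adjusted p was 0.0783 without Vehicle library 1, 0.065 without Vehicle 2, 0.0619 without Control 3 and 0.0534 with the 2 groups fitted alone. Per length, this member stayed above every other member in every group.

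The remaining 7 antagonists did not pass the test. Sfrp1 had 215.3, 196.9 and 160.5 CPM in Vehicle libraries and 259.6, 236.0 and 281.0 CPM in Control libraries, without overlap (log2 fold change -0.44, SE 0.25, edgeR adjusted p = 0.296). Dkk2, the Dickkopf protein that mouse cornea needs to keep its identity, had 62.0, 40.4 and 57.2 CPM in Vehicle libraries and 69.3, 70.4 and 54.8 CPM in Control libraries. Its groups overlapped (log2 fold change -0.28, adjusted p = 0.319). Frzb, an Sfrp-type antagonist first described in cartilage, had 5.11, 6.89 and 6.79 CPM in Vehicle libraries and 4.22, 1.84 and 4.92 CPM in Control libraries. Its groups did not overlap either, and its log2 fold change was 0.77 (SE 0.37, edgeR adjusted p = 0.203). Wif1 averaged 20.5 ± 5.46 and 16.8 ± 4.34 CPM in Vehicle and Control (log2 fold change 0.29, edgeR adjusted p = 0.449). Sfrp2 spread widely, with 21.01, 23.25 and 46.71 CPM in Vehicle libraries and 19.6, 30.2 and 10.0 CPM in Control libraries (log2 fold change 0.61, adjusted p = 0.444). Sfrp4 and Sfrp5, at means of 1.16 to 2.1 CPM, had log2 fold changes of 0.23 and -0.18.

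Axin2 (Entrez 12006, chromosome 11, 108920349 to 108950783, plus strand), the feedback gene read in many tissues as a measure of beta-catenin activity, had 39.5, 30.1 and 43.0 CPM in Vehicle libraries. In Control libraries it had 41.5, 41.0 and 35.6 CPM. The ranges overlapped, and the log2 fold change was -0.07 (SE 0.16, 95% interval -0.44 to 0.3, edgeR adjusted p = 0.841). The UCPRP libraries had 52.0, 37.0 and 40.2 CPM and the UCS libraries 40.1, 42.2 and 34.3 CPM. No comparison called Axin2.

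The next comparisons ask how far treated injured corneas stood from uninjured ones. In UCS against Control, 2 members were called higher and 4 lower, or 15.4% of the 39 tested, with 10.9% of all genes called, 6.4% higher and 4.47% lower. In UCPRP against Control, 2 were called higher and 5 lower, or 17.9%, with 10.4% of all genes called, 5.3% higher and 5.07% lower. The libraries did not overlap with Control for 13 members in UCS (33.3%, and 28.9% of all genes) and 12 in UCPRP (30.8% and 28.2%). Both comparisons use the 3 Control libraries that Vehicle was set against, so the lists are not independent of each other, and the values are given side by side.

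Wnt2 had 1.39, 1.23 and 1.08 CPM in UCPRP libraries and 2.02, 1.5 and 1.58 CPM in UCS libraries, against the 9.37 to 16.0 CPM of Control. Its log2 fold change was -3.23 in UCPRP (SE 0.28, edgeR adjusted p = 0.000108) and -2.77 in UCS (SE 0.28, adjusted p = 0.000194). Wnt3a had 0.64, 1.34 and 1.75 CPM in UCPRP libraries and 0.744, 1.82 and 0.919 CPM in UCS libraries, against 5.70 to 10.7 CPM in Control. All treated values of both ligands lay under all Control values. The log2 fold change of Wnt3a was -2.76 in UCPRP (edgeR adjusted p = 0.00203) and -2.86 in UCS (adjusted p = 0.00154).

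Wnt9a had 17.4, 15.0 and 18.6 CPM in UCPRP libraries and 13.02, 19.39 and 18.03 CPM in UCS libraries, against 30.2 to 40.8 CPM in Control. It fell by 1.01 in UCPRP (edgeR adjusted p = 0.00283) and by 1.03 in UCS (adjusted p = 0.00235) on the log2 scale. Fzd6 had 76.5, 59.8 and 72.8 CPM in UCPRP libraries and 79.3, 77.5 and 67.7 CPM in UCS libraries, against 139.5 to 156.1 CPM in Control. Both groups lay well under Control, with log2 fold changes of -1.09 in UCPRP (edgeR adjusted p = 0.000475) and -0.99 in UCS (adjusted p = 0.000697).

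Fzd1 had 81.5, 69.2 and 81.1 CPM in UCPRP libraries and 67.3, 78.7 and 77.6 CPM in UCS libraries, against 39.5 to 47.3 CPM in Control. It rose by 0.79 in UCPRP (edgeR adjusted p = 0.00121) and by 0.74 in UCS (adjusted p = 0.00166) on the log2 scale, with no overlap. Fzd10 had 6.188, 9.499 and 11.36 CPM in UCPRP libraries and 7.86, 8.52 and 10.0 CPM in UCS libraries, against 4.92 to 5.69 CPM in Control. Its calls were near the threshold, with log2 fold changes of 0.76 in UCPRP (edgeR adjusted p = 0.0363) and 0.72 in UCS (adjusted p = 0.0434). The UCPRP call did not hold without UCPRP 2 or 3, UCS 2, Vehicle 2 or any Control library (adjusted p-values of 0.0531 to 0.15). The UCS call did not hold without UCPRP 2 or any UCS, Vehicle or Control library (0.0554 to 0.159). Neither call held with limma-voom (adjusted p = 0.0704 in UCPRP and 0.0709 in UCS). In edgeR both were lost with a term for replicate number (0.052 and 0.0549) or Dbp class (0.0692 and 0.0563). The UCPRP call was also lost with the 2 groups fitted alone (0.122), and the UCS call with the lens genes as a covariate (0.072).

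Dkk1 was called in UCPRP against Control and not in UCS against Control, a difference that was not called in the direct comparison of UCPRP and UCS. It had 2.67, 3.70 and 2.52 CPM in UCPRP libraries and 3.77, 4.34 and 2.86 CPM in UCS libraries, all under the 6.03 to 8.24 CPM of Control. The log2 fold change was -1.24 in UCPRP (edgeR adjusted p = 0.0186) and -0.94 in UCS (adjusted p = 0.0591). The UCPRP call did not hold without UCPRP 1 (adjusted p = 0.0658), UCPRP 3 (0.0804) or Control 2 (0.0569). Dkk3, Fzd5, Lgr6 and Wnt7b, called in Vehicle against Control, were called in neither treated group. Against Control their log2 fold changes were -0.48, -0.27, 1.39 and -1.45 in UCS (edgeR adjusted p = 0.0996, 0.156, 0.203 and 0.0737). In UCPRP they were -0.30, -0.20, 0.77 and -0.55 (edgeR adjusted p = 0.318, 0.31, 0.504 and 0.514). All UCS values of Dkk3, Fzd5 and Wnt7b, and all UCPRP values of Dkk3, lay under all Control values. No difference between a treated group and Vehicle passed the test for any of the 4.

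Whether the drops changed these genes in injured cornea is asked against Vehicle. In both UCS and UCPRP against Vehicle, edgeR called 0 of the 39 tested members and 0% of all genes. In UCPRP against UCS it also called 0 members and 0% of all genes. At an unadjusted p under 0.05 there were 0 members in UCS against Vehicle (4.85% of all genes), 2 in UCPRP against Vehicle, Lgr6 and Wnt7b (9.75%), and 1 in UCPRP against UCS (2.44%). DESeq2 called 14 genes in UCS against Vehicle, 145 in UCPRP against Vehicle and 0 in UCPRP against UCS over all genes, and limma-voom 0 in each, with 0 members called by either tool in the 3 comparisons. Without Vehicle library 3, edgeR called 37 genes in UCS against Vehicle and 195 in UCPRP against Vehicle, and 0 members in either. The libraries did not overlap for 2 members in UCS against Vehicle (5.13%, and 9.46% of all genes), 5 in UCPRP against Vehicle (12.8% and 13.8%) and 3 in UCPRP against UCS (7.69% and 10.6%).

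**Figure D4:**
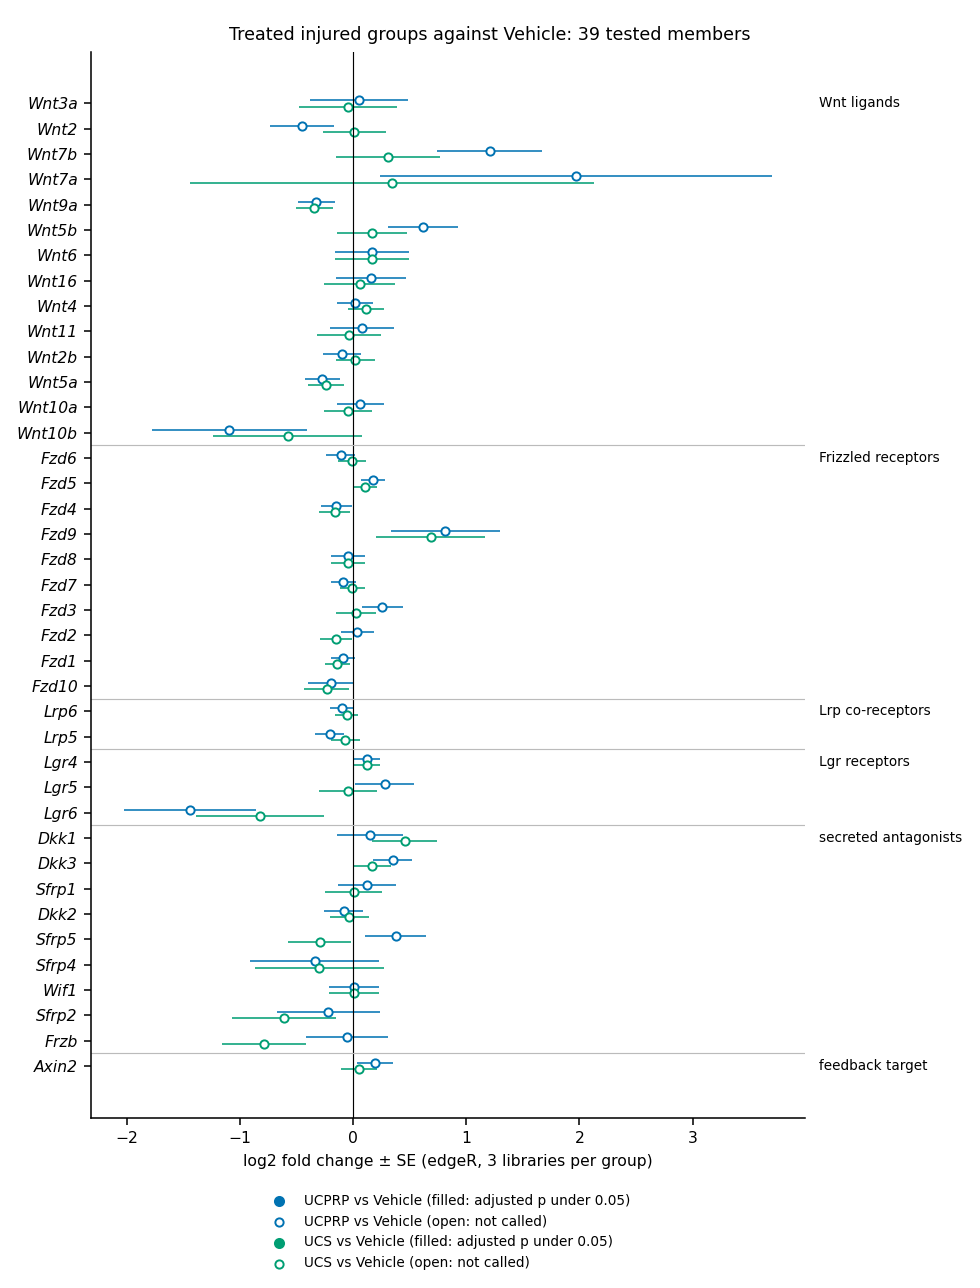
Log2 fold change ± SE of the 39 tested members in UCPRP and UCS corneas, each against the same 3 Vehicle libraries (edgeR, 3 libraries per group). No point is filled, since no member had an adjusted p under 0.05; the Lgr6 points lie left of 0, and the Wnt7a bars are the widest.

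Lgr6 had 0.427, 0.873 and 2.83 CPM in UCPRP libraries and 0.903, 3.27 and 2.20 CPM in UCS libraries, against 3.61, 3.22 and 4.44 CPM in Vehicle libraries. All 3 UCPRP values lay under all Vehicle values, and UCS library 2 lay within the Vehicle range. The log2 fold change against Vehicle was -1.44 in UCPRP (95% interval -2.79 to -0.10, edgeR adjusted p = 0.472) and -0.82 in UCS (95% interval -2.13 to 0.49, adjusted p = 1). Between UCPRP and UCS it was -0.62 (95% interval -1.98 to 0.74, edgeR adjusted p = 0.985), so a difference of either sign lies within the interval. All Lgr6 values were fractions of a count, and the lowest library held 8 counts.

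Wnt9a was lower in every UCPRP and every UCS library than in any Vehicle library, whose values were 19.8 to 23.4 CPM. The log2 fold change against Vehicle was -0.33 in UCPRP (95% interval -0.71 to 0.05, edgeR adjusted p = 0.555) and -0.34 in UCS (95% interval -0.72 to 0.04, adjusted p = 1). Between the treated groups it was 0.02 (95% interval -0.36 to 0.40, edgeR adjusted p = 0.998). Wnt2 was lower in every UCPRP library than in any Vehicle or UCS library, with log2 fold changes of -0.45 against Vehicle (95% interval -1.11 to 0.21) and -0.46 against UCS (95% interval -1.12 to 0.20), and neither passed the test (edgeR adjusted p = 0.642 and 0.985).

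The other members without overlap were Frzb in UCS against Vehicle, Fzd3 and Fzd9 in UCPRP against Vehicle, and Fzd3 and Sfrp5 in UCPRP against UCS. Frzb had 2.82, 3.48 and 4.60 CPM in UCS libraries and 5.11, 6.89 and 6.79 CPM in Vehicle libraries (log2 fold change -0.79, 95% interval -1.64 to 0.07, edgeR adjusted p = 1). Fzd3 had 18.8, 18.7 and 22.3 CPM in UCPRP libraries and 14.2, 18.1 and 17.8 CPM in Vehicle libraries (log2 fold change 0.26, edgeR adjusted p = 0.678). Sfrp5, with 1.81, 1.49 and 1.23 CPM in UCPRP libraries and 0.797, 1.13 and 0.919 CPM in UCS libraries, was the member under the unadjusted threshold in that comparison (edgeR adjusted p = 0.985). Dkk1, Fzd1, Fzd10, Fzd5 and Fzd6 differed from Vehicle by -0.24 to 0.45 on the log2 scale in UCS and by -0.20 to 0.18 in UCPRP.

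Wnt7a (Entrez 22421, chromosome 6, 91363981 to 91411363, minus strand) varied within the groups along with the lens genes. In each injured group Wnt7b was highest in the library with the most lens transcripts. Control differed, since its library with the most lens transcripts, Control 3, had its lowest Wnt7b value, 88.64 CPM. Wnt7a had 1.65, 0.103 and 10.1 CPM in UCPRP libraries, 0.0531, 3.64 and 0.153 CPM in UCS, 0.103, 2.88 and 0 CPM in Vehicle and 3.09, 0 and 3.57 CPM in Control. The 6 libraries with more lens transcripts held 1.65 to 10.1 CPM of Wnt7a, and the other 6 held 0 to 0.153 CPM, which is at or under the floor of 3 counts. Each group had libraries of both kinds. The test of Wnt7a in Vehicle against Control had a wide error (log2 fold change -1.15, SE 1.74, edgeR adjusted p = 0.746).

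Wnt7b had 59.64, 28.96 and 119.9 CPM in UCPRP libraries and 27.2, 61.2 and 23.2 CPM in UCS libraries. Within UCPRP the highest Wnt7b value was in library 3, which also held the most lens transcripts, and the lowest in library 2, which held the fewest. Against Vehicle, Wnt7b was 1.21 higher in UCPRP on the log2 scale (95% interval 0.14 to 2.28, edgeR adjusted p = 0.454). Without UCPRP library 3 the difference was 0.56, and with the lens genes as a covariate it was 0.81. Within the 6 libraries with fewer lens transcripts, 1 of them UCPRP and 2 Vehicle, it was 0.11, and within the other 6, 2 of them UCPRP and 1 Vehicle, it was 1.26. In UCS against Vehicle the difference was 0.31 (95% interval -0.76 to 1.37, edgeR adjusted p = 1).

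Wnt7b in Vehicle and Control is given here by lens class, and the part of lens tissue in the difference was not tested. Vehicle libraries 1 and 3, with fewer lens transcripts, had 24.8 and 28.6 CPM, against 103.4 CPM in Control library 2, also with fewer. Vehicle library 2, with more, had 36.8 CPM, against 112.1 and 88.6 CPM in Control libraries 1 and 3. With the lens genes as a covariate the log2 fold change was -1.5 (SE 0.29, edgeR adjusted p = 0.0062). Within the libraries with fewer and with more lens transcripts it was -1.94 and -1.47. In each of these fits 1 group had 1 library and was assumed to vary like the others, so only the size of the difference is given.

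**Figure D5:**
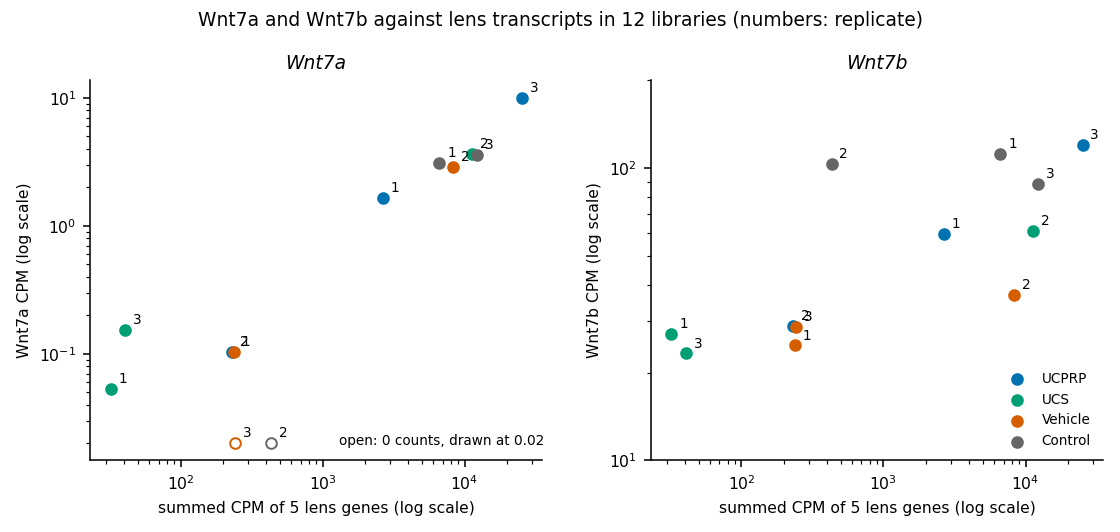
CPM of Wnt7a and Wnt7b against the summed CPM of 5 lens genes in each of the 12 libraries, on log axes, with the replicate number beside each point and open points for 0 counts. The 6 libraries with the most lens transcripts have 1.65 to 10.1 CPM of Wnt7a, and the 3 Control points of Wnt7b lie near 100 CPM at both lens levels.

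Genes of the pathway were followed in 5 lists, the first 4 of genes outside these families and the last, of common targets, including the members Axin2, Dkk1 and Lgr5. In Vehicle against Control, 16.5% of all genes were called, 9.58% higher and 6.92% lower. The counts of all 5 lists stand beside that share, and no list was tested against it. Of 12 genes for Wnt secretion and agonists, 1 was higher and 1 lower in Vehicle than in Control. Tspan12, a tetraspanin that helps norrin signal through Fzd4, averaged 22.9 ± 2.35 CPM in Vehicle and 12.9 ± 0.277 CPM in Control (SD, n = 3 each), and its log2 fold change was 0.82 (SE 0.12, edgeR adjusted p = 0.000952). Gpc3, a glypican that binds Wnts at the cell surface, averaged 37.2 ± 8.28 CPM in Vehicle and 69.5 ± 2.47 CPM in Control (log2 fold change -0.90, edgeR adjusted p = 0.0128). Both were called in the same direction in UCS and in UCPRP against Control. Wls, which carries Wnts to the cell surface, averaged 210.8 ± 31.4 and 208.5 ± 18.1 CPM in Vehicle and Control and was not called.

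Of 16 genes for alternative receptors and planar polarity, 1 rose and 2 fell. The co-receptor Ptk7 rose by 0.58, and the polarity genes Prickle2 and Scrib had log2 fold changes of -0.68 and -0.35 (edgeR adjusted p = 0.00287, 0.00128 and 0.0334). Of 11 tested membrane inhibitors, 1 rose, Tpbg, known from zebrafish as an inhibitor of Lrp6 signalling, at 14.5 ± 1.82 CPM in Vehicle and 7.93 ± 0.635 CPM in Control (log2 fold change 0.87, edgeR adjusted p = 0.00178). Of 24 genes of the destruction complex and its nuclear partners, 1 rose and 1 fell. They were the co-repressor Tle1 (log2 fold change 0.40) and Ctnnbip1, which keeps beta-catenin from TCF factors (-0.53), with edgeR adjusted p-values of 0.0322 and 0.0266. Ctnnb1, the gene of beta-catenin, averaged 693.7 ± 82.7 CPM in Vehicle and 744.0 ± 144 CPM in Control and was not called (adjusted p = 0.746).

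Of 20 tested genes often used as Wnt targets, 3 were higher and 2 lower in Vehicle than in Control, and Axin2, Nkd1, Lef1 and Notum were among the 15 not called. Myc averaged 31.8 ± 3.91 CPM in Vehicle and 14.3 ± 3.12 CPM in Control (log2 fold change 1.15, SE 0.15, edgeR adjusted p = 0.000476). Ccn5 and Ccn4, matricellular genes, rose by 1.40 and 1.01 on the log2 scale (edgeR adjusted p = 0.00721 and 0.015). Ccnd1, which encodes cyclin D1, fell by 0.95 (edgeR adjusted p = 0.00379), and the other that fell is the member Dkk1, counted above. The median log2 fold change of the 5 lists, in the order given, was 0, 0.018, -0.231, -0.009 and 0.019, beside -0.001 over all genes. No gene of these lists was called in UCS or UCPRP against Vehicle.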

How the data were processed

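The deposited table holds estimated counts per gene for 12 libraries; 64.9% of its values, zeros included, lay within 0.001 of a whole number, and neither the labels nor the notes name the counting tool, the annotation or the strand setting. The submitters' processing notes name HISAT and GRCm38. The labels' protocols give the Qiagen RNeasy kit and the TruSeq Stranded Total RNA kit. The deposited estimated counts were rounded to whole numbers and fitted over all genes with edgeR 4.0.16 (R 4.3.3): filterByExpr with a minimum count of 10, TMM, 1 term per group over all 12 libraries, robust quasi-likelihood test, Benjamini-Hochberg adjustment over 16124 genes, called at an adjusted p under 0.05. Intervals (95%) use the standard error with residual degrees of freedom. The edgeR steps were tested on simulated counts with 1 dispersion for all genes. The simulation held no lens, retina or clock differences within groups, so it does not cover those. Within groups, log2 CPM correlated at 0.96 to 0.986. DESeq2 1.42.0 and limma 3.58.1 were alternatives. Exon lengths and coordinates came from GENCODE (GRCm38), matched by Entrez number for all 45 members.

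The members and the gene lists were chosen with earlier results of these data known. Named were all called members, the most abundant member per role, and preselected members of interest; of each pathway list, up to 4 called genes. Nothing shows that pools came from separate experiments, so p-values measure the spread between these pools. Library floors cover counting error only.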

Additional observations from a re-analysis of the deposited data

How the results depend on the processing

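All 24 called gene-by-comparison results kept their direction in every alternative run, and 0 of them were called in every run. Outside the fits within lens classes, which have few libraries, 16 were called in all alternatives. The lens settings were chosen after seeing the data. With group means removed, correlations of same-numbered libraries were -0.581 to 0.494, with 7 of 18 over 0.1. Of the 12 libraries, 3 correlated best with their own number. These correlations cannot decide whether the replicate numbers mark a shared batch, which the labels do not state. With the replicate block, 1 member was called higher in UCS against Control and 1 in UCPRP against Control.

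In Vehicle against Control, 5 to 8 members were called lower with 1 library left out (5 without Vehicle 1 or Vehicle 2), 0 lower and 0 higher within the libraries with fewer lens transcripts, and 2 lower and 0 higher within those with more. Single calls of that comparison were lost with the 2 groups alone (Dkk3, adjusted p = 0.0534; Fzd5, 0.23), the replicate block (Fzd5, 0.07), the lens covariate (Fzd5, 0.0576) and the Dbp class (Wnt7b, 0.0617). In UCS against Control, 1 to 2 were called higher with 1 library left out, 1 with limma-voom, the Dbp class or the lens covariate, and 0 within either lens class; 7 were called lower with DESeq2, 1 within the fewer-lens and 0 within the more-lens libraries. In UCPRP against Control, 1 to 2 were called higher with 1 library left out, 1 with limma-voom, the 2 groups alone or the Dbp class, and 0 within either lens class; 0 and 2 were called lower within the fewer-lens and more-lens libraries. The causes were not tested.

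Uncalled members changed sign in Vehicle against Control. Axin2 was 0.02 within the fewer-lens libraries, -0.18 to 0.08 with 1 library left out and -0.38 to 0.08 over all alternative settings. Wif1 was -0.04 within the more-lens libraries. Wnt5a was 0.02 with the 2 groups alone, 0.01 with the lens covariate, 0.13 within the fewer-lens libraries and -0.14 to 0.10 with 1 library left out. Wnt11 was -0.54 to 0.11, Lrp5 -0.01 to 0.20 and Lrp6 -0.01 to 0.16 with 1 library left out; Lrp5 was -0.03 within the fewer-lens and Lrp6 -0.11 within the more-lens libraries. In UCS against Vehicle, Lgr6 was 0.04 within the more-lens libraries. With the retina markers as a covariate, Frzb (0.83, adjusted p = 0.0256) and Wnt4 (-0.34, adjusted p = 0.00798) were called in Vehicle against Control.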
